A study of Homo sapiens with 66 samples.

Results

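The caudal homeobox genes CDX1, CDX2 and CDX4 were followed through a differentiation series that led from human embryonic stem cells to spinal motor neurons. Their rows were found by symbol, through the Ensembl identifiers of the deposited tables, and they are 3 of 60603 identifiers. RNA of the H9 embryonic stem cell line, wild type, was sequenced in 66 bulk libraries, 3 in each of 22 groups. All libraries came from this 1 line, and no label states that the 3 libraries per group came from separate cultures, so the p-values measure only the spread between these libraries, which may be technical.

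CDX genes encode homeodomain transcription factors, the vertebrate relatives of fly caudal, and belong to the ParaHox family together with the GSX genes and PDX1. In the mouse embryo they are active in the posterior growth zone, where Wnt and FGF signals act on them and where they bind and activate HOX genes of the trunk. CDX2 has further known roles in the trophectoderm and in the intestinal epithelium, where CDX1 is also expressed.

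The groups follow the protocol. Undifferentiated cells (hESC) were kept in mTeSR1 medium. In the groups hNMP-D1 to hNMP-D4 (human neuromesodermal progenitors, the bipotent cells of the embryonic tail bud, by day), single cells had spent their first day in mTeSR1 and the later days in N2/SM1-based medium with FGF2, the GSK3 inhibitor CHIR99021 and the SMAD pathway inhibitors SB431542 and Dorsomorphin. In NeuDet-D1 to NeuDet-D6 (neural determination, by day) the cells had been dissociated and replated with both SMAD inhibitors, FGF2, FGF8, CHIR99021 and the gamma-secretase inhibitor Compound E. Per the study's methods, FGF2 and CHIR99021 were at higher doses than in the hNMP medium. Passaged spinal cord neural progenitors (hSCNPC-P5, P10, P20, P30 and P40, by passage) were grown with the Smoothened agonist Purmorphamine, SB431542 and CHIR99021, with no FGF named. SB431542 and CHIR99021 were at lower doses there than in NeuDet medium. Motor neuron cultures (hMN-D6, D12, D18, D24, D30 and D42, by day) received Purmorphamine, Compound E, BDNF, GDNF and NT-3. Gene totals ran from 14142238 to 40204753 counts per library with a median of 20676228, and the NeuDet libraries, at 24852173 to 40204753, had the highest median of any stage (30488154), with ranges that overlap those of the hNMP, hSCNPC and hMN libraries. Of the genes that define neuromesodermal progenitors, SOX2 averaged 254 CPM and TBXT 4.26 CPM in hNMP-D4.

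CDX1 (ENSG00000113722.16) lies on chr5:150166778-150184558, plus strand, CDX2 (ENSG00000165556.9) on chr13:27960918-27969315, minus strand, and CDX4 (ENSG00000131264.3) on chrX:73447053-73455171, plus strand, in GRCh38. Their exons, merged over transcripts, cover 1775, 3517 and 1642 bases, and 0 of these bases are shared with exons of other genes. Because CDX2 and CDX4 changed in opposite directions at the same step of the protocol, the 250 bases before each start are shown (RefSeq, GRCh38.p14, 5′ to 3′ on the strand of the gene, chr13:27969316-27969565 and chrX:73446803-73447052), with matches to CTTTGA (the core letters of the TCF/LEF motif, the factors at the end of the Wnt pathway) and to ATGCAAAT (the octamer motif of POU factors) in capitals.
CDX2: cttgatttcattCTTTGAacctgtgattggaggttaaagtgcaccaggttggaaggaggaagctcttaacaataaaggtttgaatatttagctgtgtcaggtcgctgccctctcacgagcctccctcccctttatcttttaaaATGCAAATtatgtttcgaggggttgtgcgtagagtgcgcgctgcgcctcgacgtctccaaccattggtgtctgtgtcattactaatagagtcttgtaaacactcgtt
CDX4: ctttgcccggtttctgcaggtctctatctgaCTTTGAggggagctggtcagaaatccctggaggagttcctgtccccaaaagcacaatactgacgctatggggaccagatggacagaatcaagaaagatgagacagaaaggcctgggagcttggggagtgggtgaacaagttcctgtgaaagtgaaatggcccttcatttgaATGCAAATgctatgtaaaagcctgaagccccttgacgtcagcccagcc
Both strands were searched, and the motifs were chosen with the sequences in view. The octamer was found 1 time in each promoter, at -107 to -100 from the start in CDX2 and at -48 to -41 in CDX4, and it was present in 573 of 35116 promoter windows (1.63%). CTTTGA was found 1 time in each as well, at -238 to -233 in CDX2 and at -219 to -214 in CDX4, against 11.21% of all windows. A letter match of the CDX site TTTATT was found 1 time in the CDX2 window, at -180 to -175 on the opposite strand and written there in lower case, and 0 times in the CDX4 window (16.04% of all windows), and its other form TTTATG 0 times in both (9.64%).

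The 3 genes were on at different times. CDX4 was already counted in hESC and was highest on the second day of the hNMP stage, CDX1 was highest on the first day of NeuDet, and CDX2 on the fourth day of NeuDet. All 3 were at or close to 0 in every passaged progenitor and motor neuron group. Levels are CPM values (counts scaled to a common library size) after TMM scaling over the 66 libraries, and since the libraries are bulk, fewer cells with a gene and less RNA per cell cannot be told apart.

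**Figure D1:**
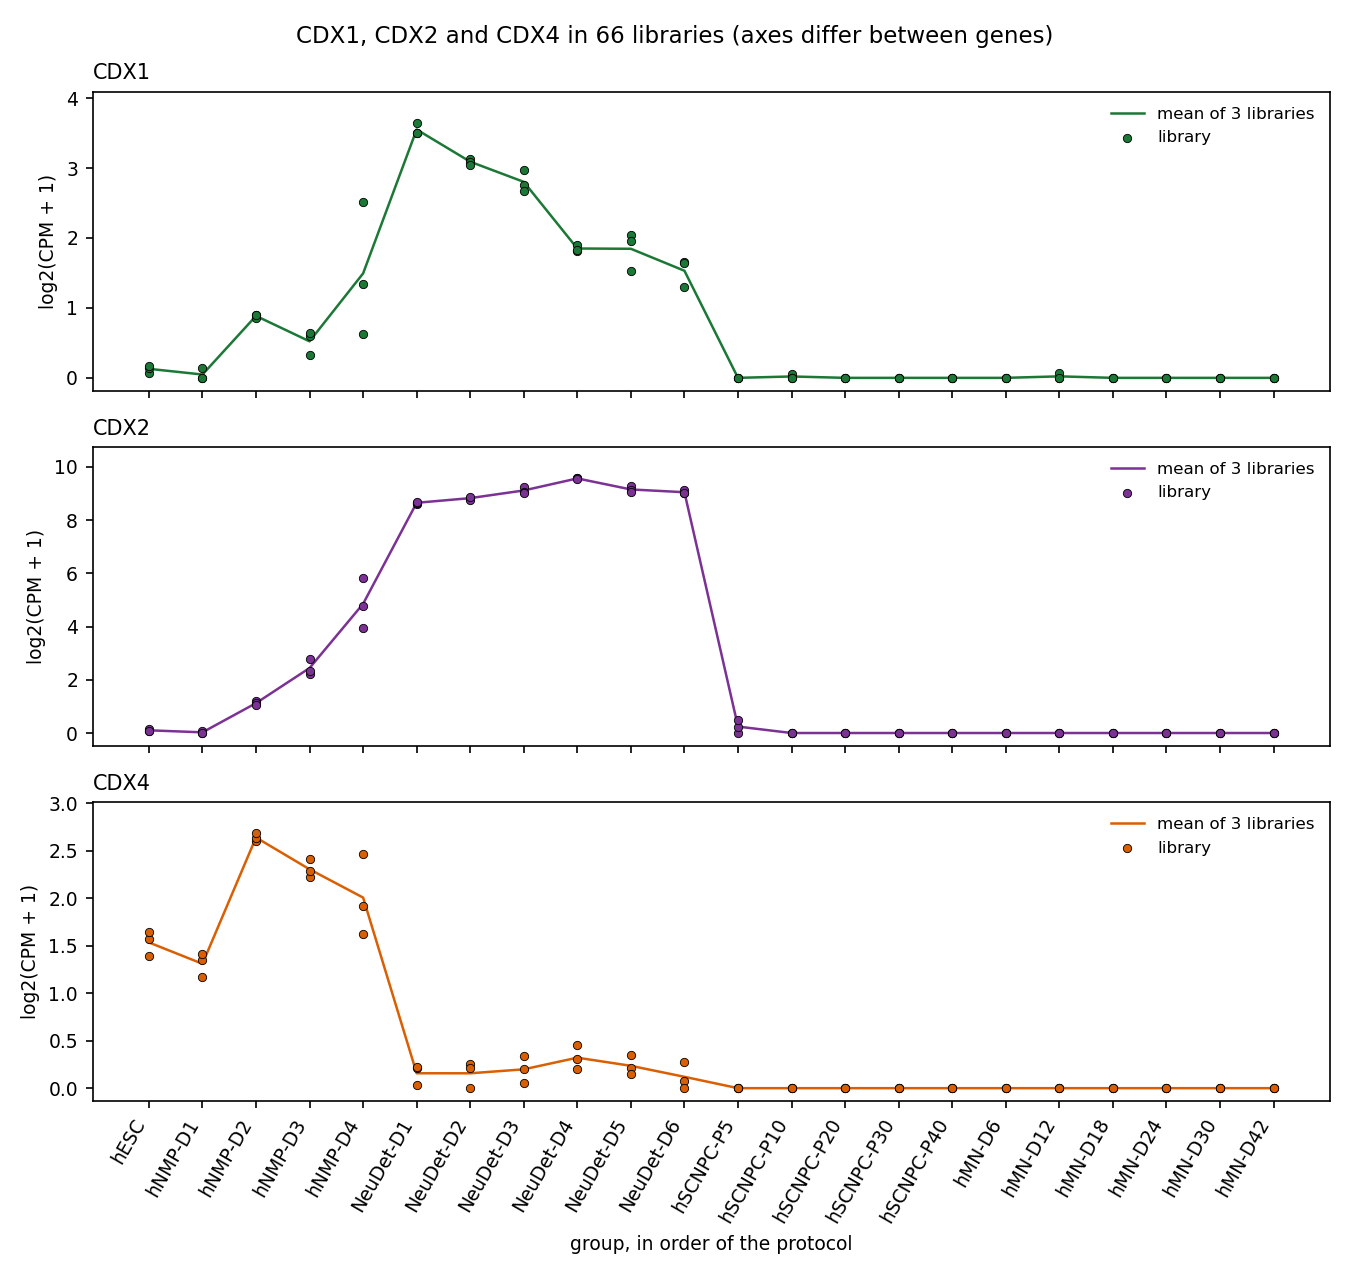
Levels of CDX1, CDX2 and CDX4 as log2(CPM + 1) (vertical axis, a separate range for each gene) in 22 groups in protocol order, with 1 point per library and a line through the mean of 3 libraries. CDX4 peaked in hNMP-D2 at 5.23 CPM, CDX1 in NeuDet-D1 at 10.7 CPM and CDX2 in NeuDet-D4 at 759 CPM, and the points of hNMP-D4 lie further apart than those of the other hNMP groups.

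CDX4, a short-lived caudal gene of the mouse posterior growth zone, was the only one of the 3 with more than 2 counts in any hESC or hNMP-D1 library. It had 1.63, 1.97 and 2.12 CPM in hESC, 1.54, 1.25 and 1.67 CPM in hNMP-D1 and 5.06, 5.18 and 5.43 CPM in hNMP-D2, so the libraries of day 2 lay above all those before them. Between hNMP-D1 and hESC none of the 3 genes was called (47.1% of genes were). In hNMP-D2 against hNMP-D1 its log2 fold change was 1.80 (SE 0.321, edgeR, adjusted p = 8.23e-06), and 50.3% of the 21597 genes tested were called in this comparison, at an adjusted p under 0.05. Its means were then 3.94 ± 0.327 CPM in hNMP-D3 and 3.14 ± 1.26 CPM in hNMP-D4 (SD, n = 3), and neither step passed the test (edgeR, adjusted p = 0.318 and 0.399). The library ranges of hNMP-D3, hNMP-D4 and hESC overlapped from each to the next in this order of level, and hNMP-D4 against hESC gave 0.72 (SE 0.322, edgeR, adjusted p = 0.0563).

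At replating into NeuDet medium CDX4 fell. The NeuDet-D1 libraries had 1, 5 and 5 counts, against 40, 53 and 107 counts in hNMP-D4, with no overlap. The log2 fold change was -4.83 (SE 0.447, edgeR, adjusted p = 2.98e-12), and as a ratio of counts CDX4 was 29.3-fold lower in NeuDet-D1 (95% exact counting interval 16 to 59.6). From NeuDet-D1 to NeuDet-D6 its group means stayed between 0.0900 and 0.252 CPM, all neighbours in the order overlapped, and none of the 5 daily steps passed the test (edgeR, adjusted p from 0.450 to 0.932, where 22.2% to 35.7% of genes were called).

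CDX1, which in the mouse is expressed in the caudal embryo and later in the intestine, was near 0 at the start and rose in steps. It had 1, 2 and 2 counts in hESC, 0, 0 and 2 counts in hNMP-D1 and 21, 14 and 15 counts in hNMP-D2. The log2 fold change in hNMP-D2 against hNMP-D1 was 4.41 (SE 0.959, edgeR, adjusted p = 0.000271), and the ratio of the 50 counts to the 2 counts was 24.6 (exact counting interval 6.46 to 209). Without replicate 3 of hNMP-D1, the only library of that group with a count, the fitted value was 7.31 (adjusted p = 0.000631). Its lower mean in hNMP-D3 than in hNMP-D2, 0.442 ± 0.159 against 0.848 ± 0.0287 CPM (SD, n = 3), came with no overlap of libraries but did not pass the test (edgeR, adjusted p = 0.184), at 45.9% of genes called.

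In hNMP-D4 CDX1 rose to 4.70, 1.53 and 0.550 CPM, against 0.514, 0.553 and 0.260 CPM in hNMP-D3, and the lowest library of day 4 lay just under the highest of day 3. The log2 fold change was 2.35 (SE 0.507, edgeR, adjusted p = 0.000402; 37.4% of genes called). It was 1.22 (adjusted p = 0.0153) without replicate 1 of hNMP-D4, and in a fit of these groups alone the call was lost (2.37, adjusted p = 0.0780). In NeuDet-D1 it reached 11.5, 10.3 and 10.4 CPM, above every hNMP-D4 library. The fold change over hNMP-D4 was 2.22 (SE 0.327, edgeR, adjusted p = 9.15e-07; 56.0% of genes called) and 3.39 without replicate 1 of hNMP-D4.

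CDX1 was lower at the end of the NeuDet stage than at its start. Its means from NeuDet-D1 to NeuDet-D6 were 10.7, 7.52, 6.00, 2.61, 2.64 and 1.91 CPM. The ranges of NeuDet-D1, D2, D3 and D5 did not overlap from one to the next in the order of level, whereas those of D5, D4, hNMP-D4 and D6 did. The first daily steps, NeuDet-D2 against D1 and D3 against D2, gave -0.49 and -0.32 and were not called (24.5% and 35.7% of genes were). Of the daily steps 1 passed the test, NeuDet-D4 against NeuDet-D3 (-1.25, SE 0.311, edgeR, adjusted p = 0.00348; 24.4% of genes called). Over the stage, NeuDet-D6 against NeuDet-D1 gave -2.47 (SE 0.315, adjusted p = 6.88e-08; 54.6% of genes called, 28.3% as lower), a 5.51-fold lower level (counting interval 4.73 to 6.46).

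CDX2, the member with the widest range, was at 0.0733 ± 0.0264 CPM in hESC and 0.0180 ± 0.0313 CPM in hNMP-D1 (SD, n = 3). The libraries held 31, 20 and 19 counts in hNMP-D2, against 0, 1 and 0 counts in hNMP-D1. The log2 fold change was 5.72 (SE 1.82, edgeR, adjusted p = 0.0108), and the count ratio was 68.8 with an exact interval of 12 to 2757. Without replicate 2 of hNMP-D1, which held the single count, the fitted value was 7.79 (adjusted p = 0.0271).

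CDX2 rose again at each later step of the hNMP stage. It had 3.60, 5.88 and 4.08 CPM in hNMP-D3, against 1.28, 1.17 and 1.09 CPM in hNMP-D2 (log2 fold change 1.93, SE 0.566, edgeR, adjusted p = 0.00660). It had 56.4, 26.7 and 14.3 CPM in hNMP-D4, above all hNMP-D3 libraries (2.82, SE 0.330, adjusted p = 1.49e-07, and 2.15 without replicate 1 of hNMP-D4). Over the whole hNMP stage, hNMP-D4 against hESC, CDX2 changed by 8.64 (SE 0.669, adjusted p = 2.45e-11) and CDX1 by 4.47 (SE 0.678, adjusted p = 1.46e-06), where 54.3% of genes were called. These values were 8.01 and 3.38 without replicate 1 of hNMP-D4.

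The largest single gain of CDX2 in CPM came with NeuDet medium. NeuDet-D1 libraries had 394, 400.1 and 410 CPM, against 56.4, 26.7 and 14.3 CPM in hNMP-D4. On the log2 scale the gain was 3.58 (SE 0.244, adjusted p = 2.20e-12 by edgeR), and 4.28 without replicate 1 of hNMP-D4. Later means were 454, 555, 759, 570.1 and 529 CPM in NeuDet-D2 to NeuDet-D6. The 742, 762 and 771 CPM of NeuDet-D4 lay above every other library of the series, yet its step from NeuDet-D3 (0.41, SE 0.210) gave an adjusted p of 0.172 (edgeR) with the spread shared over 16 groups, and 1.3e-05 in a fit of these groups alone. The libraries of NeuDet-D5, at 617, 565 and 528 CPM, all lay below those of NeuDet-D4 (-0.38, SE 0.210, adjusted p = 0.184 by edgeR, and 0.000575 in a fit of these groups alone). NeuDet-D6 against NeuDet-D1 gave 0.40 (SE 0.211, adjusted p = 0.109). From day 1 to day 6 of NeuDet, CDX1 and CDX2 thus moved apart: the log2 ratio of CDX1 to CDX2 per exon length was -7.48 to -6.94 in NeuDet-D6, against -4.32 to -4.11 in NeuDet-D1, with no overlap (difference -2.91, two-sided exact permutation p = 0.1, the smallest that 3 against 3 libraries allow).

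All 3 genes were lost between NeuDet-D6 and the first passaged progenitors. CDX2 had 0, 3 and 8 counts in the 3 hSCNPC-P5 libraries, against 18510, 20749 and 13425 counts in NeuDet-D6. The log2 fold change was -11.27 (SE 0.460, edgeR, adjusted p = 2.06e-17; 59.4% of genes called), and it was -12.48 without replicate 3 of hSCNPC-P5. As a count ratio CDX2 was 2616-fold lower (interval 1462 to 5241), and its log2 fold change ranked 9 by size among the 21597 genes tested. CDX1 had 0 counts in hSCNPC-P5, against 76, 80 and 38 counts in NeuDet-D6, which is at least 35.3-fold lower with a floor of 3 counts over the group. For CDX4, with 0 counts in hSCNPC-P5 against 2, 8 and 0 counts in NeuDet-D6, the bound was only 1.82-fold, and its call (edgeR, adjusted p = 0.0311) was lost without any 1 library of hSCNPC-P5 and without replicate 2 of NeuDet-D6 (-2.78, adjusted p = 0.225).

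No caudal gene came back. In the 30 libraries of hSCNPC-P10 to P40 and hMN-D6 to D42, which hold 586825021 counts in all, CDX2 and CDX4 had 0 counts each, a limit of 0.00482 CPM over these libraries, and CDX1 had 2 counts, 1 in hSCNPC-P10 and 1 in hMN-D12. CDX2 was thereby at least 10394-fold lower in hSCNPC-P10 than in NeuDet-D6, and CDX4 at least 37.0-fold lower in hSCNPC-P10 than in hESC, the cells the series started from (edgeR, adjusted p = 9.98e-11; 75.1% of genes called). None of the 3 genes passed the low-count filter among the motor neuron libraries, so no test was made there. Intervals and limits cover counting error only.

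The 3 hNMP-D4 libraries differed from one another in all caudal genes. Replicate 1 was highest and replicate 3 lowest for CDX1 (90, 29 and 13 counts in replicates 1, 2 and 3) and for CDX2 (1080, 507 and 337 counts). CDX4 was the other way round, with 40, 53 and 107 counts. Other genes and lists were looked at after the caudal values were seen. HOX genes of groups 1 to 4, summed, were also highest in replicate 1 and lowest in replicate 3 (89.7, 58.2 and 22.2 CPM). The same order held for those of groups 5 to 9 (3.24, 0.684 and 0.169 CPM) and SP5, a direct Wnt target (171, 121 and 79.6 CPM). It also held for the summed Wnt genes (1433, 1290 and 1199 CPM). Summed genes of neuromesodermal progenitors and caudal epiblast had this order too (845, 615 and 517 CPM). So did summed neural progenitor genes, NKX1-2, URAD and the pluripotency gene NANOG. Others did not follow this order: trophectoderm genes, summed, were lowest in replicate 1 (118, 191 and 180 CPM), and TBXT (6.16, 3.16 and 3.47 CPM) and POU5F1, a pluripotency gene (51.8, 39.7 and 46.6 CPM), were lowest in replicate 2. The part of these differences in the results was not tested, other than by the values without replicate 1. One of them turned: CDX1 in NeuDet-D6 against hNMP-D4 changed by -0.25 (SE 0.358, edgeR, adjusted p = 0.552; 65.1% of genes called) with all libraries, by 0.93 (adjusted p = 0.00537) without replicate 1 and by -0.75 (adjusted p = 0.0128) without replicate 3 of hNMP-D4.

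Levels of different genes were compared per exon length. Of the summed signal of the 3 genes, CDX4 made up 94.1 ± 1.27% in hESC, 97.5 ± 2.77% in hNMP-D1, 79.6 ± 1.25% in hNMP-D2, 61.3 ± 7.32% in hNMP-D3 and 20.6 ± 16.5% in hNMP-D4 (SD, n = 3). In hNMP-D4 CDX2 already led in every library, with 80.4%, 74.8% and 56.9%. It held 94.9 ± 0.360% in NeuDet-D1 and 99.3 ± 0.160% in NeuDet-D6. CDX1 was never the leading gene, and its highest mean share was 12 ± 0.439% in hNMP-D2. With coding length in place of exon length the lead in hNMP-D3 changed, with CDX2 at 47.7% and CDX4 at 46.8%.

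**Figure D2:**
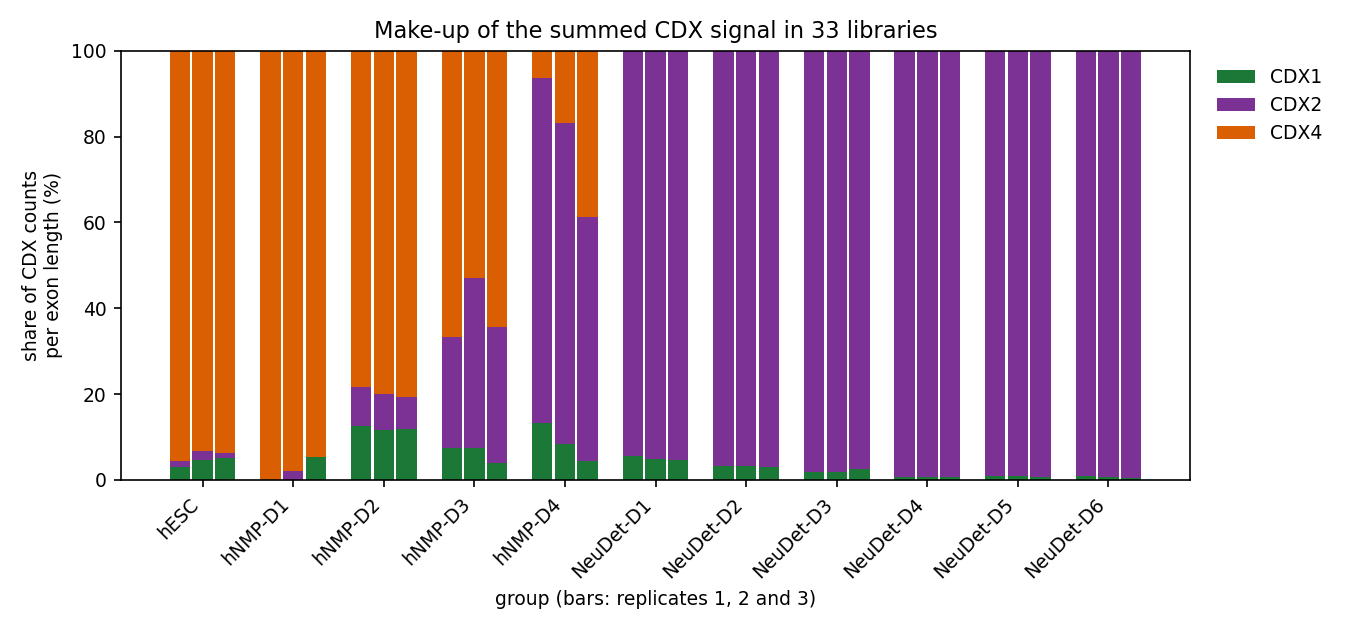
Share of each gene (%) in the summed counts per exon length of CDX1, CDX2 and CDX4, as 1 stacked bar for each of 33 libraries with at least 20 CDX counts, in protocol order from hESC to NeuDet-D6. CDX4 fills most of each bar up to hNMP-D2, the 3 bars of hNMP-D4 differ from one another, and CDX2 holds more than 94% in every NeuDet bar.

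Genes of the pathways that are known to act on CDX genes moved along with them in part. In hNMP-D4 against hESC, 11 of the 14 Wnt genes tested passed as higher and 3 as lower (1 as lower with no low-count filter or in a fit of these groups alone), with a median log2 fold change of 1.58, against 0.01 over all genes and 26.7% of them called higher. They include SP5 (7.09), FZD10, a Wnt receptor (5.45), LEF1, a partner of beta-catenin (5.41), and RNF43, a feedback inhibitor (4.42), while TCF7L1, the repressive TCF of stem cells, was lower (-3.01). In NeuDet-D1 against hNMP-D4, 8 Wnt genes were higher, 4 lower and 2 not called, with a median of 1.05 and 25.4% of all genes called higher. In hSCNPC-P5 against NeuDet-D6, 3 were higher, 9 lower and 2 not called (median -1.18; 28.8% of all genes called higher and 30.6% lower). The Wnt targets among them differed: AXIN2 was lower (-1.19) and averaged 76.6 CPM in hSCNPC-P5, and SP5 averaged 1.02 CPM in hSCNPC-P5 and 471 CPM in NeuDet-D6. In hSCNPC-P10 against hESC, the start of the series, FZD10 (6.12), LEF1 (6.00), SP5 (2.80) and AXIN2 (1.56) of the Wnt genes named here were higher. RNF43 (-5.12) and TCF7L1 (-0.90) were lower. Whether the Wnt genes and the caudal genes depend on each other was not tested.

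FGF response genes took another course. In hNMP-D4 against hESC, 1 of 9 was higher and 6 lower (median -1.04; 27.6% of all genes called lower), in the days when CDX1 and CDX2 rose. In NeuDet-D1 against hNMP-D4, 8 were higher and 0 lower (median 1.88, at 25.4% of all genes called higher), among them the feedback phosphatase DUSP6 at 3.35. In hSCNPC-P5 against NeuDet-D6, 0 were higher and all 9 lower (median -6.55, at 30.6% of all genes called lower). The transcription factors ETV5 (-8.76) and ETV4 (-7.56), DUSP6 (-8.04) and SPRY4 (-7.20) changed most, and ETV5 averaged 0.199 CPM in hSCNPC-P5. Whether the FGF response and CDX2 depend on each other was not tested. Retinoic acid pathway genes were mixed in hNMP-D4 against hESC, with 4 of 11 higher and 3 lower (26.7% and 27.6% of all genes). Their sum was 228 CPM in hESC, 563 CPM in hNMP-D4, 1339 CPM in NeuDet-D1, 1869 CPM in NeuDet-D4 and 1360 CPM in NeuDet-D6. In NeuDet-D1 against hNMP-D4, 4 were higher and 3 lower (25.4% and 30.5% of all genes). In NeuDet-D6 against hNMP-D4, 8 were higher and 3 lower (65.1% of all genes called in either direction). In hSCNPC-P5 against NeuDet-D6, 5 of the retinoic acid pathway genes were higher and 5 lower (28.8% and 30.6% of all genes).

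Other genes of neuromesodermal progenitors and caudal epiblast were more often higher than lower at both early steps, and more often lower at the first passages. In hNMP-D4 against hESC, 8 of 12 tested passed as higher and 3 as lower, with WNT8A (1 count in hESC), SP5, EVX1 and TBXT (3.40) among the higher, while 26.7% of all genes were higher and 27.6% lower. In NeuDet-D1 against hNMP-D4, 7 were higher and 2 lower (25.4% and 30.5% of all genes). In hSCNPC-P5 against NeuDet-D6, 3 were higher and 7 lower (28.8% and 30.6% of all genes), with TBXT at 0 counts, NKX1-2 at -8.71 and FGF17 at -7.06, whereas SOX2 (0.67) and SP8 (1.02) were higher.

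HOX genes are known targets of CDX factors, but whether they depended on the caudal genes in these cells was not tested. In order of time, HOX genes of groups 5 to 9 came up after CDX2. Both also rose from hNMP-D4 to NeuDet-D1, where the cells were replated and the medium changed. The 15 HOX genes of groups 5 to 9, summed, were at 0 CPM in hESC, 0.0332 CPM in hNMP-D2, 1.36 CPM in hNMP-D4, 400.2 CPM in NeuDet-D1 and 2047 CPM in NeuDet-D4. In hNMP-D4 against hESC, 5 were called higher and 0 lower (26.7% of all genes were higher). However, 9 of the 15 were at or under 3 counts in both groups, and 0 were called in a fit of these groups alone. In NeuDet-D1 against hNMP-D4, 14 were higher and 0 lower (25.4% of all genes called higher), and HOXD9 (0.85) was not called. The median log2 fold change was 6.52, or 4.93 with the 5 genes of 0 counts in hNMP-D4 set to their bound. In NeuDet-D6 against NeuDet-D1 all 15 were higher (median 4.17; 26.3% of all genes called higher), HOXA9 (8.38) and HOXC9 (7.87) most, while CDX1 was lower. HOX genes of groups 1 to 4, summed, averaged 1.10 CPM in hNMP-D2, 4.94 CPM in hNMP-D3 and 56.7 CPM in hNMP-D4. Of these, 7 of 12 were higher and 0 lower in hNMP-D4 against hESC (26.7% of all genes were higher), or 2 in a fit of these groups alone. In NeuDet-D1, 12 of 12 were higher than in hNMP-D4 (25.4% of all genes were).

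The HOX genes outlasted the caudal genes. In hSCNPC-P5 against NeuDet-D6, 4 genes of groups 5 to 9 were higher, 9 lower and 2 not called, with a median of -0.58. Of all genes, 28.8% were called higher and 30.6% lower. HOXB9 averaged 686 CPM and HOXA9, among the higher ones, 68.1 CPM (log2 fold change 1.00, SE 0.116) in hSCNPC-P5, where CDX2 averaged 0.194 CPM. The sum of groups 5 to 9 was 1562 CPM in NeuDet-D6 and 1219 CPM in hSCNPC-P5. It was 396 CPM in hSCNPC-P10, 56.6 CPM in P20 and 8.12 CPM in P40, with CDX2 at 0 counts from P10 on. In hMN-D6 the sum was 1110 CPM, also with 0 CDX2 counts. No label gives the passage from which the hMN cultures were started, so this sum cannot be placed in the order of passages. Only 3 of 12 genes of groups 10 to 13 were tested, and 2 of these were higher in NeuDet-D6 than in NeuDet-D1 (26.3% of all genes were), with HOXC10 at 11.1 CPM.

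**Figure D3:**
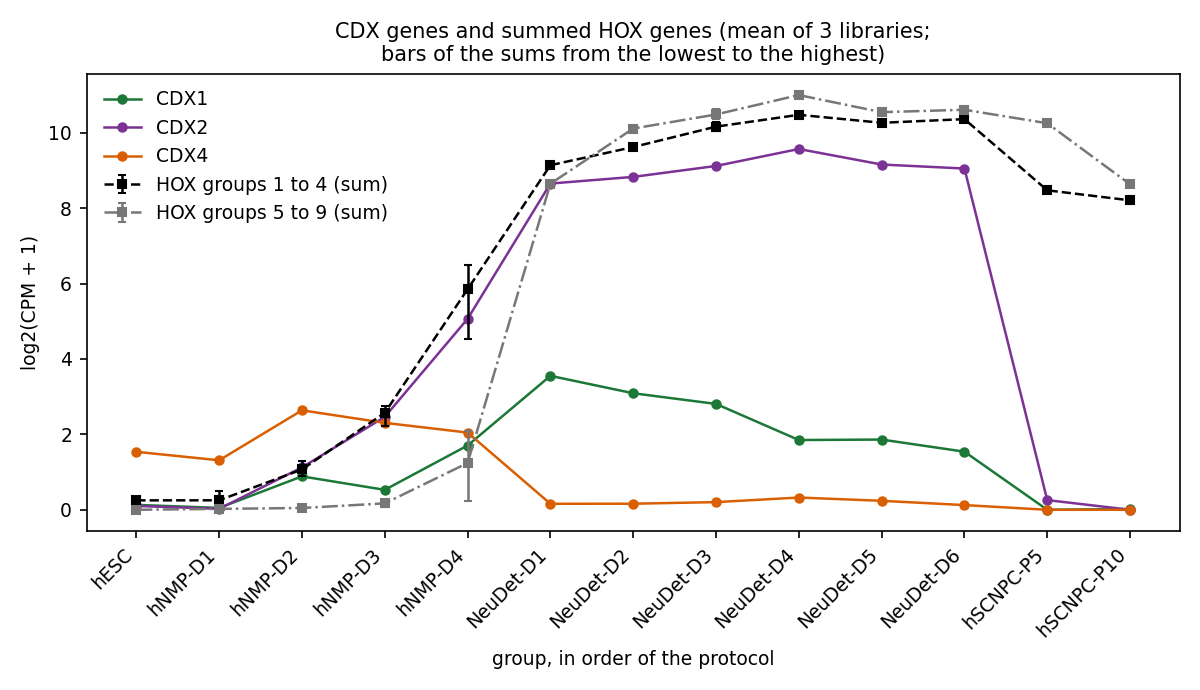
Levels as log2(CPM + 1) of CDX1, CDX2 and CDX4 (solid lines) and of the summed HOX genes of groups 1 to 4 and 5 to 9 (broken lines, bars spanning the libraries), as means of 3 libraries, in 13 groups in protocol order. The sum of groups 5 to 9 comes up from hNMP-D4 on, after CDX2, and in hSCNPC-P5 the sum of groups 5 to 9 is at 1219 CPM with CDX2 at 0.194 CPM.

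CDX2 lies in the ParaHox cluster on chromosome 13, and its neighbours did not act alike. URAD, an enzyme gene of uric acid breakdown in other mammals, ends 8402 bases from CDX2 on the same strand and took nearly the same course. Its means were 0 CPM in hESC, 0.506 CPM in hNMP-D4, 39.1 CPM in NeuDet-D1, 166 CPM in NeuDet-D4, 153 CPM in NeuDet-D6 and 0.0194 CPM in hSCNPC-P5. The log2 fold change was 6.29 (SE 0.273) in NeuDet-D1 against hNMP-D4. In hSCNPC-P5 URAD had 1 count, against 15251 counts in NeuDet-D6. URAD was called higher in NeuDet-D6 than in NeuDet-D1 (1.97, SE 0.140), where CDX2 was not.

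PDX1, the pancreatic ParaHox gene on the other side of CDX2, averaged at most 0.586 CPM in any group, in NeuDet-D5, and 0 CPM in hSCNPC-P5. GSX1, a ParaHox gene of the dorsal neural tube further out, went the other way at the passages: 1.16 CPM in NeuDet-D6, 3.79 CPM in hSCNPC-P5, 31.5 CPM in P20 and 167 CPM in P30, the last of these with 0 CDX2 counts. Of GSX1, GSX2 and PDX1, 2 were higher and 1 lower in hSCNPC-P5 than in NeuDet-D6 (28.8% and 30.6% of all genes). FLT3, a receptor gene of blood cells beyond URAD, stayed between 0.461 and 1.17 CPM from hESC to NeuDet-D6. Next to CDX1, PDGFRB, a growth factor receptor gene, was lower in hNMP-D4 than in hESC (-1.99) and higher in NeuDet-D1 than in hNMP-D4 (1.04), and SLC6A7, CSF1R and CAMK2A were each under 2 CPM up to NeuDet-D6. Around CDX4, NAP1L2 and CHIC1 were above 15 CPM in every group up to NeuDet-D6, and ZCCHC13 and PABPC1L2A at or under 1.24 CPM.

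**Figure D4:**
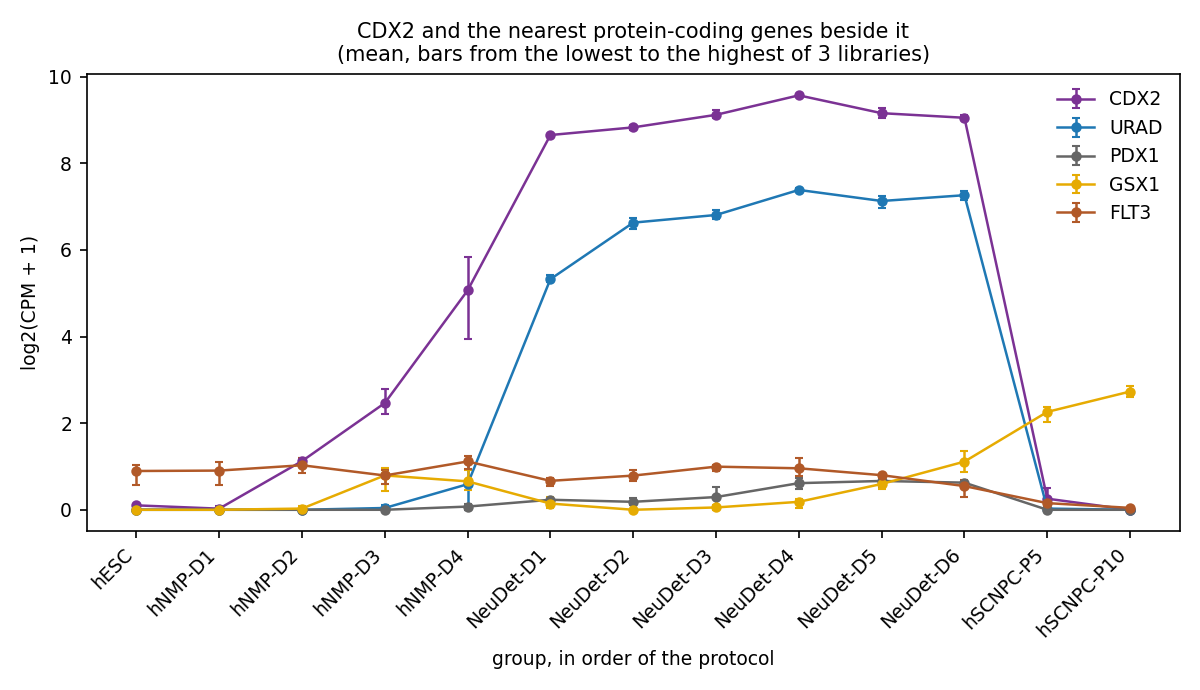
Levels as log2(CPM + 1) of CDX2 and of the 2 nearest protein-coding genes on each side of it, as the mean with bars that span the 3 libraries, in 13 groups in protocol order. URAD follows CDX2 from NeuDet-D1 (39.1 CPM) to NeuDet-D6 (153 CPM) and is near 0 in hSCNPC-P5, while GSX1 is at 3.79 CPM there and PDX1 and FLT3 stay low.

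The genes whose course was most like that of each caudal gene were ranked by Pearson correlation of group means of log2(CPM + 1) over the 22 groups, among 14216 genes with a symbol and at least 5 CPM in some group. These are descriptions over groups that share libraries and long runs of 0. For CDX1 the first 4 were GPR55, a lipid receptor gene (r = 0.949), LINC01780, EGFLAM, an extracellular matrix gene, and QRFPR, a neuropeptide receptor gene (0.940). For CDX2 the first 5 were LINC01124 (0.995), EGFLAM (0.984), URAD (0.965), VAMP5, a vesicle membrane gene, and LYPD6B (0.960). For CDX4 they were CCDC172 (0.989), PTAFR, the receptor of platelet-activating factor, LCP1, an actin-bundling gene, BSPRY and CPXM2 (0.967). CDX1 and CDX2 had an r of 0.922 with each other, and CDX4 one of 0.035 with CDX1 and -0.030 with CDX2. The names depend on the measure, since the first 5 by Spearman correlation shared 0 genes with these for each member.

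Markers of other tissues in which CDX genes are known were low or lower in the NeuDet groups, where CDX2 was highest, though few of them could be tested. Of 10 intestinal epithelium genes, 4 could be tested, and 0 of these were higher in NeuDet-D1 than in hNMP-D4 (25.4% of all genes were). The sum of all 10 was 0.970 CPM in NeuDet-D1 and 0.362 CPM in NeuDet-D6, with KRT20 at 0 counts. Trophectoderm genes, summed, were at 163 CPM in hNMP-D4 and 125 CPM in hESC, and 5 of 7 tested were higher in hNMP-D4 (3 with the 1 CPM filter or in a fit of these groups alone, at 26.7% of all genes higher), with GATA2 at 6.37 and TFAP2A at 5.14. In NeuDet-D1, 1 of 7 was higher and 5 lower than in hNMP-D4 (25.4% and 30.5% of all genes). The sum was 57.2 CPM in NeuDet-D1, 39.4 CPM in NeuDet-D4 and 23.6 CPM in NeuDet-D6, and in the groups up to NeuDet-D6 the mean of ELF5 was at most 0.0471 CPM and CGA had at most 1 count per group. The endoderm list summed to at most 4.26 CPM, in hNMP-D4, among the groups up to NeuDet-D6.

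Presomitic mesoderm genes summed to 61.9 CPM in hESC, mostly DLL3 at 44.9 CPM, and to 19.4 CPM in NeuDet-D1, where MSGN1 and TBX6 were at 0.0820 and 0.572 CPM. Of the 11 tested, 2 were higher and 3 lower in NeuDet-D1 than in hNMP-D4, shares near the 25.4% and 30.5% of all genes. The presomitic mesoderm sum was higher later in the stage, at 59.3 CPM in NeuDet-D4 and 77.6 CPM in NeuDet-D6. In NeuDet-D6 against NeuDet-D1, 5 of the 11 were higher and 0 lower (26.3% and 28.3% of all genes). Neural progenitor genes parted from the caudal genes at the passages. All 8 were higher in hSCNPC-P5 than in NeuDet-D6 (28.8% of all genes were), with a median of 4.23. PAX6 was at 487 CPM in hSCNPC-P5 and 0.158 CPM in NeuDet-D6. Of 5 hindbrain and anterior genes, 3 were lower in NeuDet-D1 than in hNMP-D4 and 1 higher (30.5% and 25.4% of all genes), or 0 higher in a fit of these groups alone. Their sum was 176 CPM in hNMP-D4, 225 CPM in NeuDet-D1, 324 CPM in NeuDet-D4 and 132 CPM in NeuDet-D6. OTX2, a forebrain and midbrain gene, averaged 0.171 CPM in NeuDet-D1 and 16.1 CPM in hNMP-D4.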

How the data were processed

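Bulk RNA of 66 libraries in 22 groups of 3 was analysed. Per the study's methods, the authors cleaned the reads (fastp), mapped them on hg38 (HISAT2 2.1.0) and assigned them to genes (featureCounts 1.5.3). The deposited values are raw counts, in 2 tables with the same 60603 identifiers. The GENCODE release and the strand setting of the counting are not given in the sources used here. Of the identifiers, 60261 (99.44%) had a symbol in GENCODE v44, which also gave positions and exon lengths. The RefSeq promoter table held CDX2 and CDX4.

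Tests of counts used edgeR 4.0.16 under R 4.3.3, helped by statmod 1.5.0 and limma 3.58.1, with its robust quasi-likelihood F test with TMM scaling, filterByExpr and Benjamini-Hochberg adjustment over all genes tested, and called at an adjusted p under 0.05. The 48 libraries from hESC to hSCNPC formed 1 model (21597 genes), and hMN (18) plus hSCNPC-P10 (3), included because no library is labelled day 0 of hMN, another (21175 genes). CPM levels used TMM over all 66 libraries, so levels are set across the 2 tables. Levels, intervals and figures came from scipy 1.17.1, numpy 2.4.6, pandas 2.3.3 and matplotlib 3.10.9 under Python 3.11.15. The relative counting error of a value is the inverse square root of its count. Bounds against 0 used 3 counts over the group.

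The genes named were the 3 members, the 5 most alike to each, the 2 nearest protein-coding genes on each side, and from each list described up to 4 called members with the largest change and up to 2 that went the other way or were not called. Genes of these lists named outside this rule, for their role, were chosen after their values were seen. The values of 1 gene that the rule would name are not reported here. The members and lists were chosen with earlier results of these data known. The tests were tried on simulated counts. Alternatives were RLE scaling, no low-count filter, a filter at 1 CPM, DESeq2 1.42.0, the compared groups alone, each library left out, the replicate block, other CPM scalings, other gene lengths, and Spearman correlation or a 1 CPM floor for likeness.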

Additional observations from a re-analysis of the deposited data

How the results depend on the processing

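RLE scaling changed no call of the caudal genes. CDX4 in hNMP-D4 against hESC (0.72 on the log2 scale, not called) was called with no low-count filter (0.72), with the 1 CPM filter (0.77) and with DESeq2 (0.70), and ranged from 0.34 to 0.98 with 1 library left out. In fits of the compared groups alone, CDX1 in hNMP-D4 against hNMP-D3 was no longer called (2.37), while CDX1 (-0.99) and CDX4 (-0.39) in hNMP-D3 against hNMP-D2, CDX1 (-0.48) and CDX2 (0.21) in NeuDet-D2 against NeuDet-D1, and CDX2 in NeuDet-D3 against D2 (0.31), D4 against D3 (0.41), D5 against D4 (-0.38) and D6 against D1 (0.41) were called. DESeq2 called CDX2 in hSCNPC-P10 against P5 (-4.40), P40 against P5 (-4.37) and P10 against hESC (-3.03), each with 0 counts in the later group. With 1 library left out, CDX1 in NeuDet-D6 against hNMP-D4 ran from -0.75 to 0.93, turning to 0.93 without hNMP-D4 replicate 1, and CDX4 in hSCNPC-P5 against NeuDet-D6 ran from -4.68 to -2.78. The cause of these shifts was not tested.

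The number of genes called in fits of the compared groups alone was 5178 against 8067 for hNMP-D4 and hNMP-D3, 2125 against 4805 for NeuDet-D6 and D5, and 2288 against 1327 for hSCNPC-P40 and P30. CPM from raw totals and TMM within each table gave CDX2 in NeuDet-D4 as 701 and 713 CPM, and TMM within each table gave CDX4 in hNMP-D2 as 4.90 CPM. Coding length moved 21 of 33 shares by more than their SD. The floor of 1 CPM kept 3, 4 and 2 of the 5 genes most alike to CDX1, CDX2 and CDX4. The replicate block changed no call of a caudal gene (CDX2 in NeuDet-D1 against hNMP-D4 3.62, SE 0.238). No pairing by number was seen among the 48 libraries from hESC to hSCNPC. Over 360 pairs with the same number the deviations had a median correlation of 0.002, and 14 of 48 libraries were closest to their own number. Such values cannot tell unpaired libraries from paired ones that share only small deviations. Alternatives were not run for the hMN model, in which no caudal gene could be tested.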
